A study of Mus musculus with 10 samples.

Results

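The 10 genes described here build the machinery with which bile ducts secrete a bicarbonate-rich fluid: *Sctr*, *Sstr2*, *Cftr*, *Ano1*, *Slc4a2*, *Slc4a4*, *Car2*, *Slc12a2*, *Atp1b1* and *Aqp1*. They were taken by symbol from a table of 49568 genes, each symbol stood for 1 gene, and all 10 were among the 14870 genes tested, those with a mean of at least 10 normalized counts over the mice. Reactive cholangiocytes, the bile duct cells that multiply around injured portal tracts, were sorted from the livers of 5 *Smad4*del mice and 5 *Ctl* mice and their RNA was amplified and sequenced, 1 library per mouse. *Smad4*del mice are labelled Smad4fl/fl. By the study's methods they carried *Alb-Cre*, a recombinase under the albumin promoter that acts in the hepatocyte and biliary lineage, and the *Ctl* mice, labelled Smad4wt/wt, carried no *Alb-Cre*, so the cohorts differed in *Cre* as well as in *Smad4*. All 10 mice were fed a diet with 0.1% DDC, a compound that provokes biliary injury, for 2 weeks before the livers were digested and EPCAM+/CD45-/TER119- cells were collected. Age and sex of the mice are not given in the sources used here. Mice are named by the numbers in the labels, and where 5 values are listed they follow mouse number within the cohort, A5216, A5217, A5218, A5447 and A5624 for *Smad4*del and A5215, A5219, A5221, A5626 and A5628 for *Ctl*.

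As background, the hormone secretin binds its receptor on the basolateral side of large cholangiocytes and raises cyclic AMP. This opens the chloride channel CFTR in the apical membrane, chloride that leaves the cell is exchanged for bicarbonate by the anion exchanger AE2, and water follows through aquaporins, which dilutes and alkalinizes bile. Somatostatin opposes secretin, purinergic signals open a calcium-activated chloride channel in parallel, and the sodium pump drives the uptake of chloride and bicarbonate at the basolateral side. Defects of this secretion underlie the liver disease of cystic fibrosis.

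The targeted gene fitted the labels in every mouse. *Smad4* had 687 to 1031 normalized counts in *Smad4*del mice and 2969 to 3714 in *Ctl* mice, a log2 fold change of -1.96. Reads on genes numbered 16734672 to 19710560 in *Smad4*del libraries and 16249719 to 21277339 in *Ctl* libraries. *Epcam*, the sorting antigen, averaged 25766 ± 1862 normalized counts in *Smad4*del mice and 23657 ± 3803 in *Ctl* mice (SD, n = 5 each). Since the cells were sorted on EPCAM, its level is no independent check of their biliary identity. The cytokeratin *Krt19* averaged 30191 ± 5034 in *Smad4*del mice and 20800 ± 2472 in *Ctl* mice. The *Ctl* library A5215 stood apart: its *Epcam* was 16857, below the 24052 of the lowest *Smad4*del mouse and the 25162 of the next *Ctl* mouse, and it had the highest endothelial and macrophage marker levels of all mice. Markers of other cell types moved with the cohort. Of 20 endothelial markers, all 20 had a log2 fold change below 0 and 17 passed the test, and their mean log2 level ran 8.34 to 9.51 in *Smad4*del mice and 9.89 to 11.4 in *Ctl* mice, with no endothelial marker at 0 in all mice. All 18 macrophage markers (1 passed, *Cd163*) and all 14 stellate and fibroblast markers (2 passed, *Dcn* and *Acta2*) were also below 0, with mean log2 levels of 5.85 to 10.7 in *Smad4*del mice and 7.81 to 13.0 in *Ctl* mice for macrophages and of 7.30 to 8.0 in *Smad4*del mice and 8.04 to 9.87 in *Ctl* mice for stellate cells and fibroblasts. The mean log2 level of hepatocyte markers ran 9.56 to 10.9 in *Smad4*del mice and 9.47 to 10.1 in *Ctl* mice. The 10 red cell markers summed to 36.8 to 11400 normalized counts in *Smad4*del mice and 189 to 4917 in *Ctl* mice, most of it globin RNA (*Hba-a1* up to 4275 in *Smad4*del mice and 1981 in *Ctl* mice), while 4 of them, *Epb42*, *Slc4a1* and *Car1* included, were listed at 0 in all mice. The cholangiocyte markers themselves leaned upward: 14 of 17 had a log2 fold change above 0, with a median of 0.28, and *Krt19* (0.53), *Onecut1* (0.62), *Tff2* (0.97) and *Muc1* (0.66) passed the test as higher. The *Krt19* call held in 5 of 10 limma fits with 1 mouse left out (adjusted p 0.0273 to 0.0733).

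The transcripts of the secretin receptor and the water channel fell in the sorted samples of *Smad4*del mice, that of the β1 subunit of the sodium pump rose, and the chloride channels, bicarbonate transporters and chloride loader did not pass the test. In limma on log2(normalized count + 1), with Benjamini-Hochberg adjustment over all 14870 genes, 1 of the 10 genes passed as higher (*Atp1b1*), 2 as lower (*Aqp1* and *Sctr*) and 7 were not called. Over all genes tested, 2.43% were called higher and 4.69% lower. The *Smad4*del and *Ctl* mice did not overlap in 2 genes that were higher (*Atp1b1* and *Car2*) and in 2 that were lower (*Aqp1* and *Sctr*), where non-overlapping values were seen in 3.5% of all genes as higher and in 4.59% as lower. The median log2 fold change was 0.12 over the 10 genes and -0.005 over all genes tested.

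**Figure D1:**
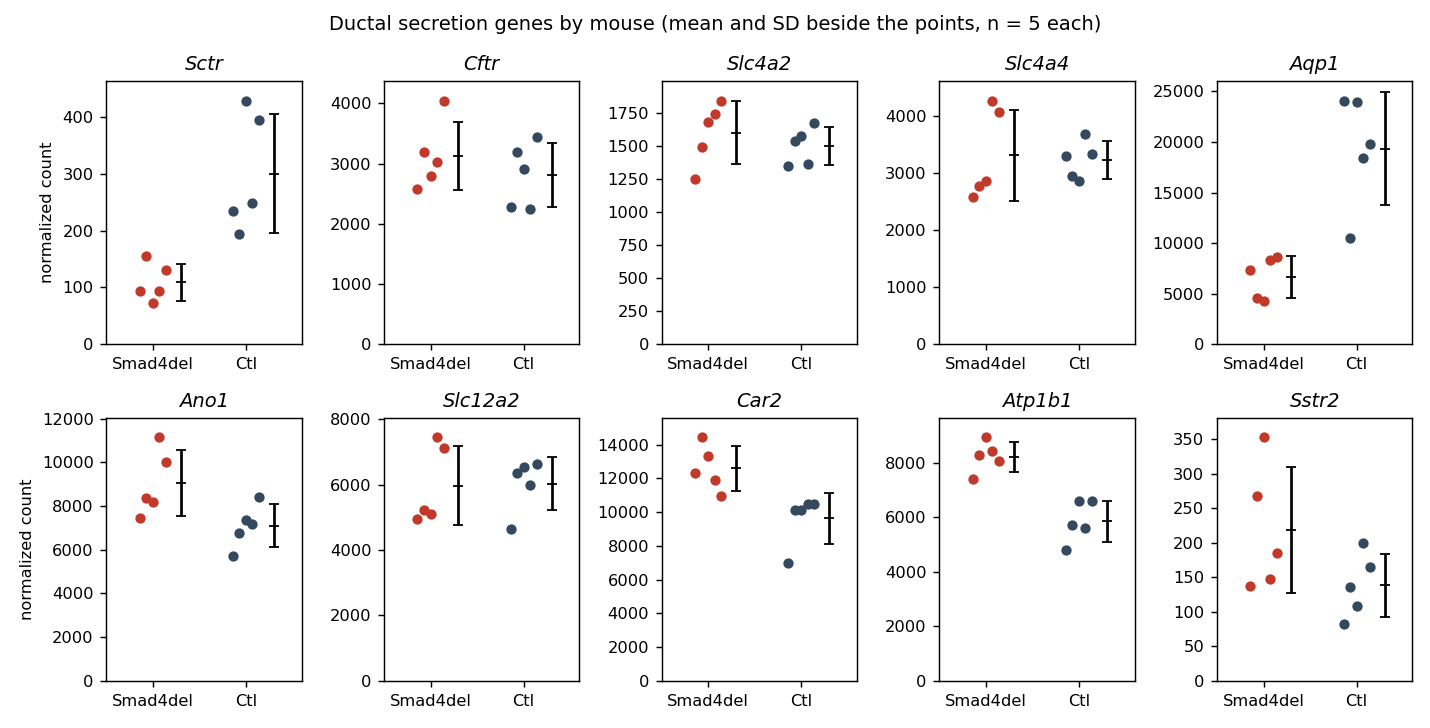
Normalized counts (vertical axes from 0, 1 scale per gene) of the 10 ductal secretion genes, *Smad4*del mice on the left of each panel and *Ctl* mice on the right, 1 point per mouse, with the mean and SD (n = 5 each) beside the points. The cohorts are separated for *Sctr*, *Aqp1*, *Atp1b1* and *Car2* and overlap for the other genes.

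**Figure D2:**
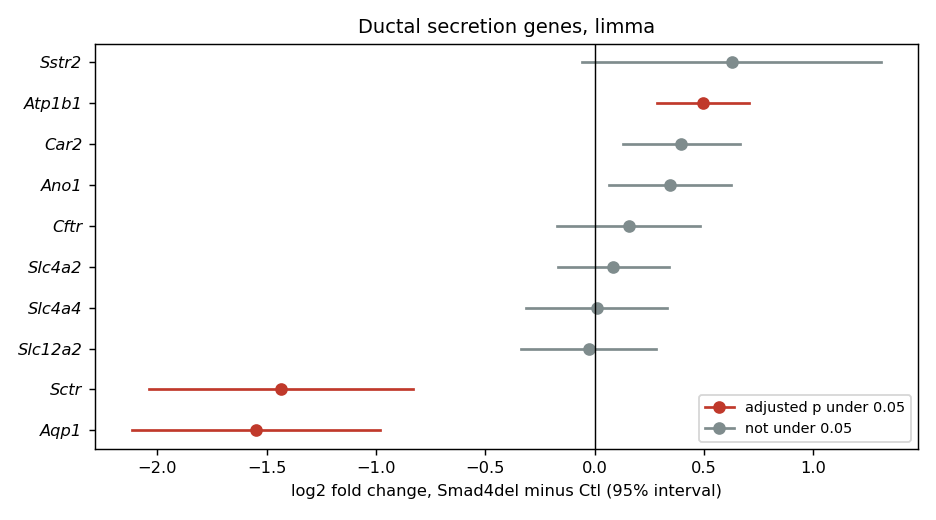
Log2 fold change (*Smad4*del minus *Ctl*, horizontal axis) of each ductal secretion gene with its 95% confidence interval from limma. Red marks the 3 genes with an adjusted p under 0.05, *Atp1b1* above 0 and *Sctr* and *Aqp1* below 0.

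*Sctr* encodes the secretin receptor, the G protein-coupled receptor that starts the response (chromosome 1, 120006894 to 120063536, plus strand, GRCm38). It had 94.3, 154.7, 73.0, 93.0 and 130.5 normalized counts in *Smad4*del mice, against 233.9, 194.5, 429.3, 249.3 and 395.2 in *Ctl* mice. Every *Smad4*del mouse lay below the lowest *Ctl* mouse, A5219, and A5221 and A5628 were the highest of all. The mean was 109 ± 32.9 in *Smad4*del mice and 300 ± 105 in *Ctl* mice (SD, n = 5 each), so *Smad4*del mice kept 36.3% of the *Ctl* level. The log2 fold change was -1.43 (SE 0.28, 95% interval -2.04 to -0.83, limma adjusted p = 0.0124), and an exact two-sided permutation test gave p = 0.00794, the smallest p that 5 mice against 5 can give. The difference stayed between -1.57 and -1.29 when any 1 mouse was left out, and it was past the threshold each time. The endothelial markers above moved in the same direction. With their level as a covariate *Sctr* was at -1.19 (SE 0.57, adjusted p = 0.976). Over all 14870 genes that fit called 0 higher and 3 lower, which holds wherever it is cited below. In sorted bulk libraries, fewer cells of a type and less RNA per cell cannot be told apart.

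*Sstr2* encodes a somatostatin receptor that couples to inhibition of adenylate cyclase and, in bile ducts, opposes secretin (chromosome 11, 113619342 to 113626028, plus strand). Its normalized counts were 136.8, 267.5, 352.9, 148.3 and 185.8 in *Smad4*del mice, against 82.7, 135.9, 108.3, 200.4 and 164.3 in *Ctl* mice. A5217 and A5218 exceeded every *Ctl* mouse and the other 3 *Smad4*del mice lay within the *Ctl* range. The log2 fold change of 0.63 had an interval of -0.06 to 1.31 (adjusted p = 0.217) and was not past the threshold. It differed between the mouse numbers, at 1.13 among mice A5216 to A5218 against A5215 to A5221 and -0.13 among the higher numbers. The sources used here do not say what the number ranges stand for.

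Around these receptors, 43 other genes of secretin and cyclic AMP signalling were listed and 38 were tested: 0 were called higher and 3 lower, with 0 and 10 at an unadjusted p under 0.05, 0 and 5 in DESeq2 and 0 and 3 in edgeR, and a median log2 fold change of -0.12 beside -0.005 for all genes. Over all genes DESeq2 called 930 higher and 1374 lower of 16435, and edgeR 313 and 598 of 14870. The share of all genes at an unadjusted p under 0.05 is not given here. Counts at that cut, for this list and those below, therefore have no background to be read against. *Adcy4*, an adenylate cyclase that makes cyclic AMP, fell to 176 ± 73.7 normalized counts in *Smad4*del mice against 496 ± 122 in *Ctl* mice (log2 fold change -1.57, adjusted p = 0.0126). *Rapgef3*, the cyclic AMP-regulated exchange factor EPAC1, fell to 105 ± 44.3 against 350 ± 122 in *Ctl* mice (-1.78, adjusted p = 0.0255), with 1 *Ctl* mouse, A5219, at 146.9 beside 148.3 in the *Smad4*del mouse A5216. *Pde4b*, a phosphodiesterase that breaks cyclic AMP down, fell to 1436 ± 354 against 2814 ± 933 in *Ctl* mice (-0.95, adjusted p = 0.0272). The *Rapgef3* call ended when A5218, A5215, A5221, A5626 or A5628 was left out (adjusted p 0.0502 to 0.0656) and the *Pde4b* call without A5217, A5218 or A5221 (0.0675 to 0.0733). The number of these genes called lower was 5 without A5216, 2 without A5217, A5215 or A5626 and 1 without A5218 or A5221. With the endothelial level as covariate the 3 genes stood at -0.28 for *Adcy4*, -0.42 for *Rapgef3* and 0.14 for *Pde4b*, none past the threshold. *Sct*, which encodes secretin itself, was near the limit of the test, at 9.13 to 15.97 normalized counts in *Smad4*del mice and 8.71 to 23.0 in *Ctl* mice.

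*Cftr* encodes the apical chloride channel that cyclic AMP opens (chromosome 6, 18170687 to 18322768, plus strand). It had 2570, 3184, 2789, 3018 and 4046 normalized counts in *Smad4*del mice, against 2271, 3194, 2909, 2240 and 3434 in *Ctl* mice. The cohorts overlapped over most of their range, and A5624 alone lay above the highest *Ctl* mouse. Its mean was 3121 ± 567 in *Smad4*del mice and 2809 ± 539 in *Ctl* mice, a log2 fold change of 0.16 with an interval of -0.17 to 0.48 (adjusted p = 0.526).

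*Ano1* encodes the calcium-activated chloride channel TMEM16A, which works in parallel with CFTR under purinergic control (chromosome 7, 144588549 to 144751974, minus strand). Normalized counts were 7445, 8381, 8167, 11144 and 10032 in *Smad4*del mice, against 5699, 6784, 7375, 7172 and 8417 in *Ctl* mice. A5447 and A5624 exceeded all *Ctl* mice, while the other *Smad4*del mice lay below the *Ctl* mouse A5628. At 0.35 (interval 0.07 to 0.62), the log2 fold change missed the threshold over all genes (adjusted p = 0.112). With the mouse number range as a term it was 0.35 with an adjusted p of 0.0450.

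Of 38 further genes of chloride channels, purinergic and calcium signalling, 33 were tested, of which 0 were called higher and 2 lower by limma (2 and 9 at an unadjusted p under 0.05, 1 and 3 in DESeq2, 0 and 2 in edgeR), and the median log2 fold change was -0.23. *Slc9a3r2*, the scaffold NHERF2 that binds the tail of CFTR, fell to 1999 ± 315 normalized counts in *Smad4*del mice against 3224 ± 506 in *Ctl* mice (-0.69, adjusted p = 0.0118). *Entpd1*, the ectonucleotidase CD39 that removes the ATP sensed by purinergic receptors and is abundant in endothelium and leukocytes, fell to 403 ± 217 against 2007 ± 974 in *Ctl* mice (-2.36, adjusted p = 0.00520). Neither gene overlapped between the cohorts, and both calls held without any 1 mouse. With the endothelial level as covariate *Slc9a3r2* was at -0.57 and *Entpd1* at -0.46, neither past the threshold.

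*Slc4a2* encodes AE2, the exchanger that brings bicarbonate into bile (chromosome 5, 24423837 to 24440950, plus strand). Normalized counts of 1249, 1497, 1689, 1743 and 1848 were found in *Smad4*del mice, against 1350, 1544, 1582, 1364 and 1676 in *Ctl* mice. Its log2 fold change was 0.09 (interval -0.17 to 0.34, adjusted p = 0.663), and both the lowest and the highest value belonged to *Smad4*del mice. Of its annotated exon bases 14.9% overlap *Fastk* and *Gm22333* on the other strand, whose reads cannot be told apart from its own without strand.

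*Slc4a4* encodes the basolateral sodium-bicarbonate cotransporter NBCe1, which loads the cell with bicarbonate (chromosome 5, 88886818 to 89239653, plus strand). It had 2575, 2779, 2859, 4275 and 4074 normalized counts in *Smad4*del mice, against 3303, 2957, 2867, 3692 and 3330 in *Ctl* mice. The *Smad4*del mice fell on either side of the *Ctl* range: A5216, A5217 and A5218 below all *Ctl* mice and A5447 and A5624 above them. The log2 fold change of 0.01 (interval -0.31 to 0.33, adjusted p = 0.975) therefore averages differences of -0.15 among the lower mouse numbers and 0.25 among the higher.

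*Car2* encodes carbonic anhydrase II, the cytosolic enzyme that makes bicarbonate from carbon dioxide and water (chromosome 3, 14886273 to 14900770, plus strand). There were 12311, 14433, 13304, 11920 and 10955 normalized counts in *Smad4*del mice, against 6955, 10127, 10105, 10478 and 10487 in *Ctl* mice. Every *Smad4*del mouse lay above every *Ctl* mouse, by 468 counts at the closest, and A5215 was far below the other *Ctl* mice. The log2 difference was 0.58 among the lower mouse numbers, which include A5215, and 0.12 among the higher. The mean was 12585 ± 1333 in *Smad4*del mice and 9631 ± 1507 in *Ctl* mice, but the log2 fold change of 0.40 (interval 0.13 to 0.66) missed the threshold in limma (adjusted p = 0.0690). DESeq2 on the recovered reads gave an adjusted p of 0.0324, and 0.129 without A5217. With edgeR it was 0.0808, and with the endothelial level as covariate the limma difference was -0.14.

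Among 38 other genes of bicarbonate and proton transport, 27 were tested. None of them was called higher in limma and 3 were called lower, with 3 and 4 at an unadjusted p under 0.05, 2 and 4 in DESeq2 and 1 and 2 in edgeR, and the median log2 fold change was 0.01. *Slc26a3*, a chloride-bicarbonate exchanger best known from the apical membrane of the colon, had the log2 fold change farthest from 0 among the called genes of the secretory lists. Its normalized counts were 4.15, 1.997, 4.06, 11.97 and 0 in *Smad4*del mice, from 0 to 13 reads, against 105.5, 40.8, 199.9, 55.6 and 68.8 in *Ctl* mice, from 48 to 216 reads. The mean in *Smad4*del mice was 4.71% of that in *Ctl* mice, and the log2 fold change was -4.35 (SE 0.69, adjusted p = 0.00528) on the scale with 1 count added. *Slc4a11*, a transporter of the bicarbonate family known from the corneal endothelium, fell to 422 ± 95.4 normalized counts in *Smad4*del mice against 1276 ± 271 in *Ctl* mice (-1.59, adjusted p = 7.42e-04). The *Slc26a3* and *Slc4a11* calls held without any 1 mouse. With the endothelial level as covariate *Slc26a3* was at -4.13 and *Slc4a11* at -1.43, close to their values without it, although neither was past the threshold (adjusted p = 0.889 and 0.685).

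**Figure D3:**
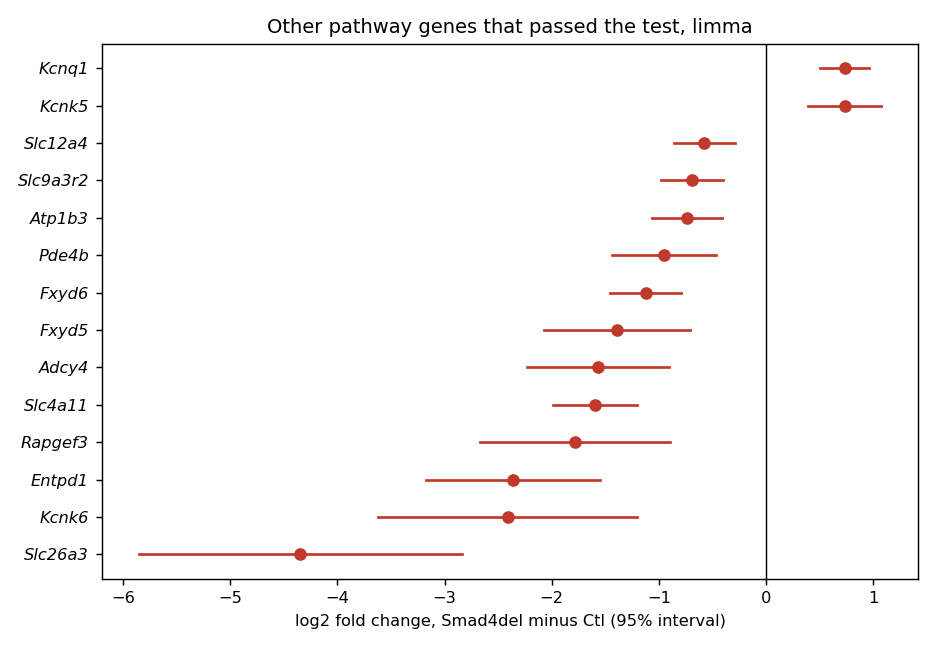
Log2 fold change (*Smad4*del minus *Ctl*, horizontal axis) with its 95% confidence interval for 14 other genes of the secretory pathway lists that passed the test in limma. *Kcnq1* and *Kcnk5* are above 0, the other 12 are below, and *Slc26a3* lies farthest from 0.

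*Slc12a2* encodes NKCC1, the basolateral cotransporter that loads epithelial cells with chloride (chromosome 18, plus strand). Its normalized counts were 4961, 5220, 5115, 7447 and 7103 in *Smad4*del mice, against 4649, 6356, 6531, 5989 and 6636 in *Ctl* mice. As for *Slc4a4*, A5447 and A5624 were the highest of all mice, while A5216, A5217 and A5218 were below all *Ctl* mice but A5215. Its log2 fold change was -0.03 (interval -0.33 to 0.28, adjusted p = 0.928), with -0.18 among the lower mouse numbers and 0.21 among the higher.

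*Atp1b1* encodes the β1 subunit of the sodium pump, which helps the pump reach the membrane (chromosome 1, 164437109 to 164458355, minus strand). It had 7416, 8285, 8945, 8434 and 8055 normalized counts in *Smad4*del mice, against 4800, 5737, 6601, 5597 and 6587 in *Ctl* mice. Every *Smad4*del mouse was above every *Ctl* mouse, and the *Smad4*del values were the tightest of the 10 genes, with a coefficient of variation of 6.8%. The mean was 8227 ± 559 in *Smad4*del mice and 5864 ± 756 in *Ctl* mice (SD, n = 5 each), 1.40-fold higher in *Smad4*del mice. The log2 fold change was 0.50 (SE 0.10, interval 0.28 to 0.71, limma adjusted p = 0.0132, exact permutation p = 0.00794), and it was 0.43 to 0.54 and past the threshold without any 1 mouse. The call ended when values were scaled to *Epcam* (0.36, adjusted p = 0.0889), with the endothelial level as covariate (0.22, adjusted p = 0.997), with the macrophage level as covariate (0.34, adjusted p = 0.0910) and in edgeR without A5217 (0.49, adjusted p = 0.0539). Of its exon bases 18.7% overlap *Nme7* on the other strand. The cholangiocyte markers above leaned in the same direction as *Atp1b1*, *Car2*, *Kcnq1* and *Kcnk5*, and their part in these differences was not tested.

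The RefSeq promoter of *Atp1b1* is shown as that of the called gene that rose (GRCm38.p6, chr1:164458306-164458605, minus strand, 300 bases written 5′ to 3′ in the direction of transcription). Capitals mark the GC box GGGCGG, or CCGCCC on the other strand, of which it held 2. A GC box was found in 35.7% of 32851 such promoter windows.
Atp1b1: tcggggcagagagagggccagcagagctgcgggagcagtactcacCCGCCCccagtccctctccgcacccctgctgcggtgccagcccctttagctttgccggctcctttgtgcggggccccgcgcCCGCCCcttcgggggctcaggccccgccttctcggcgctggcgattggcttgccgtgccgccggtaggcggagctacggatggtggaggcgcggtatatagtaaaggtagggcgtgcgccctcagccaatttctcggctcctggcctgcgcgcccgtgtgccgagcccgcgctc
The short SMAD-binding letters GTCT, or AGAC on the other strand, were not in this window, while 88.0% of all promoter windows held them at least once.

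Of 25 other genes of the sodium pump, cation-chloride cotransport and potassium channels, 22 were tested, 2 were called higher and 5 lower (3 and 11 at an unadjusted p under 0.05, 3 and 8 in DESeq2, 2 and 4 in edgeR), and the median log2 fold change was -0.61. Scaling to *Epcam* left 0 higher and 3 lower, and the macrophage level as covariate 1 and 1. Both genes that rose encode potassium channels, which return potassium across the membrane: *Kcnq1* averaged 2190 ± 222 normalized counts in *Smad4*del mice and 1317 ± 155 in *Ctl* mice (0.74, adjusted p = 0.00303). *Kcnk5*, the channel TASK-2, averaged 2368 ± 492 in *Smad4*del mice and 1403 ± 184 in *Ctl* mice (0.73, adjusted p = 0.0194), and its lowest *Smad4*del mouse, A5216, lay within the *Ctl* range. Pump subunits and regulators other than *Atp1b1* were among those that fell. *Atp1b3*, the β3 subunit of the pump, fell to 2168 ± 217 in *Smad4*del mice against 3686 ± 997 in *Ctl* mice (-0.73, adjusted p = 0.0166), opposite to *Atp1b1*. Of the FXYD genes, which encode small regulators of the pump, 2 fell, *Fxyd6* to 278 ± 54.4 against 601 ± 64.0 in *Ctl* mice (-1.12, adjusted p = 0.00224) and *Fxyd5* to 648 ± 304 against 1711 ± 770 in *Ctl* mice (-1.39, adjusted p = 0.0237), while *Fxyd1* (-0.42), *Fxyd2* (0.91) and *Fxyd3* (-0.05) were not called. *Kcnk6*, a potassium channel, fell to 54.3 ± 48.0 against 263 ± 196 in *Ctl* mice (-2.41, adjusted p = 0.0259), and *Slc12a4*, the potassium-chloride cotransporter KCC1, fell to 958 ± 181 against 1408 ± 80.6 in *Ctl* mice (-0.58, adjusted p = 0.0239).

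Several of these pump and potassium channel calls lay close to the threshold and ended when 1 of several mice was left out, with differences of similar size. The *Kcnk5* call ended without A5217 or A5218 (adjusted p 0.0570 and 0.0571), that of *Slc12a4* without A5218, A5221 or A5626 (0.0504 to 0.0634), that of *Fxyd5* without A5217, A5218, A5624, A5221 or A5626 (0.0526 to 0.0658), and that of *Kcnk6* without A5217, A5218, A5624, A5215, A5221 or A5626 (0.0501 to 0.0611). Over all mice left out in turn the log2 fold change ran 0.67 to 0.88 for *Kcnk5*, -0.65 to -0.47 for *Slc12a4*, -1.63 to -1.17 for *Fxyd5* and -2.83 to -2.05 for *Kcnk6*. The number called lower was 2 without A5218, A5221 or A5626 and 3 without A5217, and the number called higher was 1 without A5217 or A5218, and 3 without A5447. With the endothelial level as covariate *Atp1b3* was at -0.15, *Fxyd5* at -0.26, *Kcnk6* at -0.60 and *Slc12a4* at -0.16, while *Fxyd6* was at -0.88, *Kcnk5* at 0.58 and *Kcnq1* at 0.91, none past the threshold.

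*Aqp1* encodes the water channel of the cholangiocyte membrane, which is also abundant in capillary endothelium and red cells (chromosome 6, 55336432 to 55348555, plus strand). Its normalized counts were 7327, 4566, 4294, 8358 and 8584 in *Smad4*del mice, against 24098, 10475, 23943, 18402 and 19830 in *Ctl* mice. No *Smad4*del mouse reached the lowest *Ctl* mouse, A5219, which lay apart from the other *Ctl* mice. The mean was 6626 ± 2062 in *Smad4*del mice and 19350 ± 5557 in *Ctl* mice (SD, n = 5 each), 34.2% of the *Ctl* level. The log2 fold change was -1.55 (SE 0.26, interval -2.11 to -0.98, limma adjusted p = 0.00652, exact permutation p = 0.00794), and it was -1.75 to -1.41 and past the threshold without any 1 mouse. With the endothelial level as covariate it was -0.22 (SE 0.29, adjusted p = 0.997).

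The RefSeq promoter of *Aqp1* is shown as that of the called gene that fell (GRCm38.p6, chr6:55336049-55336348, plus strand, 300 bases), since the promoter table used here has no entry for *Sctr*. Capitals mark GTCT and AGAC, the short letters bound by SMAD proteins, which it held 2 times.
Aqp1: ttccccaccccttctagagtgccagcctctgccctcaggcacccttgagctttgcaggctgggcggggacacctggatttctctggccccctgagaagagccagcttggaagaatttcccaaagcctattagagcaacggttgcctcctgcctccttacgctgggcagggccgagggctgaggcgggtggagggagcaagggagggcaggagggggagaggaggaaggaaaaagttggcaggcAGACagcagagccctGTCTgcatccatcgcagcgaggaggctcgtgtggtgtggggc
With 88.0% of all windows holding these 4 letters, the match is a description and marks no binding site. The cyclic AMP response element TGACGTCA was absent from both printed windows and was in 1.79% of all windows. The window of *Sstr2*, which is not printed, held it 1 time.

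Of 10 other aquaporin genes, 4 were tested and none passed in limma, with 1 higher and 0 lower at an unadjusted p under 0.05, 1 and 0 in DESeq2 and 0 and 0 in edgeR. *Aqp5*, a channel of secretory glands, had 46.7, 106.8, 185.6, 56.2 and 113.8 normalized counts in *Smad4*del mice, against 47.9, 20.4, 49.97, 27.8 and 19.98 in *Ctl* mice (log2 fold change 1.52, interval 0.57 to 2.48, adjusted p = 0.0556). A5216 lay within the *Ctl* range and the other 4 *Smad4*del mice above it. *Aqp11*, an intracellular channel, averaged 87.5 ± 35.5 in *Smad4*del mice and 66.7 ± 29.0 in *Ctl* mice (0.38, adjusted p = 0.523). The highest *Aqp5* value, in A5218, was far below the 4294 *Aqp1* counts of the same mouse.

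Set side by side per kb of annotated exon, the genes spanned a wide range of levels. In *Smad4*del mice the mean normalized count per kb was 5196 for *Car2*, 2670 for *Atp1b1*, 2522 for *Aqp1*, 1447 for *Ano1*, 547 for *Slc12a2*, 402 for *Cftr*, 306 for *Slc4a4*, 193 for *Slc4a2*, 102 for *Sstr2* and 54.2 for *Sctr*. In *Ctl* mice it was 7366 for *Aqp1*, 3976 for *Car2*, 1903 for *Atp1b1*, 1135 for *Ano1*, 552 for *Slc12a2*, 362 for *Cftr*, 299 for *Slc4a4*, 181 for *Slc4a2*, 149 for *Sctr* and 64.5 for *Sstr2*. The same order held in each cohort when the longest transcript was used as the length. *Aqp1* thus stood below *Car2* and *Atp1b1* in *Smad4*del mice and above all of them in *Ctl* mice, and *Sctr* and *Sstr2* changed places at the low end. Neighbours in the order did not overlap between *Car2* and *Atp1b1*, between *Ano1* and *Slc12a2* and between *Slc4a4* and *Slc4a2* in either cohort, nor between *Atp1b1* and *Ano1* or between *Sctr* and *Sstr2* in *Ctl* mice, and the remaining neighbours overlapped. The receptors were the least abundant transcripts, and in both cohorts *Ano1* was above *Cftr* in every mouse.

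**Figure D4:**
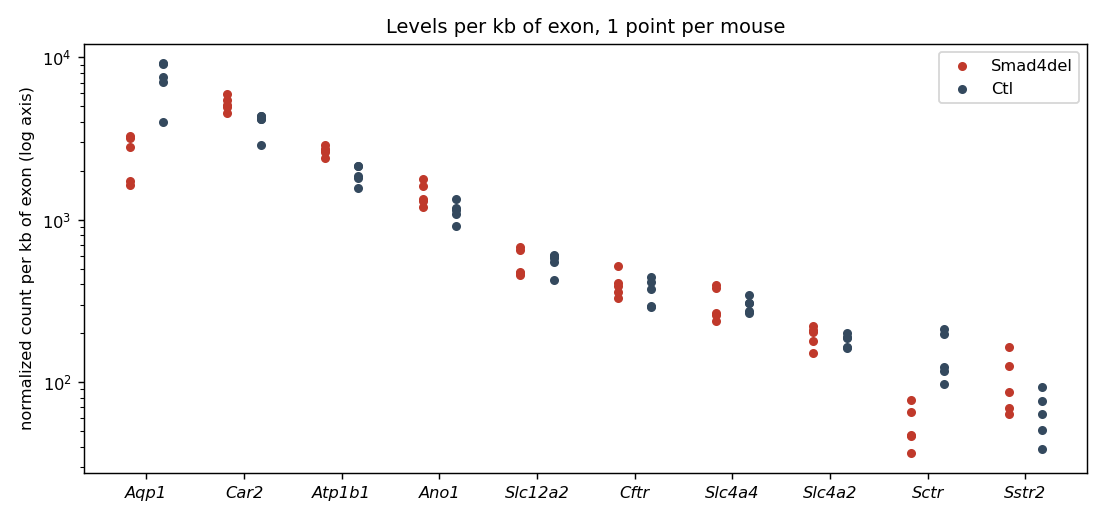
Normalized count per kb of exon (vertical log axis) of the 10 genes, ordered by the *Ctl* mean, with *Smad4*del mice left of *Ctl* mice and 1 point per mouse. The means ran 54.2 to 5196 in *Smad4*del mice and 64.5 to 7366 in *Ctl* mice, and *Sctr* and *Aqp1* are the genes whose *Smad4*del points lie well below the *Ctl* points.

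*Aqp1* and the endothelial markers put the *Smad4*del mice in the same order. Within *Smad4*del mice the order of *Aqp1* from A5218 through A5217, A5216, A5447 to A5624 matched that of the mean log2 endothelial level, at 8.34, 8.72, 9.13, 9.27 and 9.51. Within *Ctl* mice A5219 was lowest in both (9.89 for the endothelial level) and A5215 highest in both (11.4), while the middle 3 did not follow: A5626 had the highest endothelial level of these (10.6) and the lowest *Aqp1* count, and A5221 (10.5) and A5628 (10.4) had higher counts. For *Sctr*, A5218 and A5219 were likewise the lowest of their cohorts in both measures, but the *Ctl* mouse with the highest endothelial level, A5215, had the second lowest count, and the *Smad4*del mouse A5217, with the second lowest endothelial level, had the highest. The cohort and the endothelial level do not overlap, so their parts in these differences cannot be told apart. The fit with the endothelial covariate called none of the 10 ductal secretion genes. Over all 14870 genes it called 0 higher and 3 lower, so the absence of calls says little about these 10 genes.

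**Figure D5:**
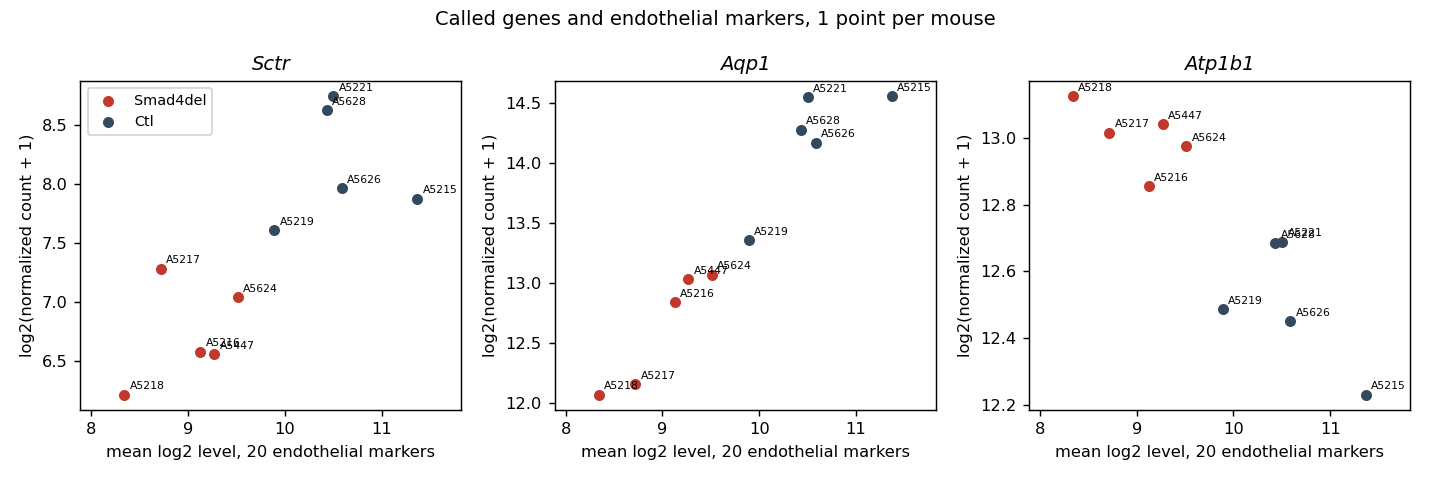
Log2(normalized count + 1) of the 3 called genes (vertical axes) against the mean log2 level of 20 endothelial markers (horizontal axes), 1 labelled point per mouse, *Smad4*del in red and *Ctl* in dark blue. The *Smad4*del mice lie at 8.34 to 9.51 and the *Ctl* mice at 9.89 to 11.4 on the horizontal axis, with no overlap.

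The genes most like each called gene over the 10 mice were found by the root mean square difference of log2 values after the mean of each gene was subtracted. For *Sctr* they were *Lims2* (0.201), *Mgll* (0.351), *Wnt2* (0.363), *Gata4* (0.368) and *Rab3b* (0.369), where the median over all genes was 0.906, and *Aqp1* was at 0.480. For *Aqp1* they were *Mmrn2* (0.139) and *Phactr1* (0.176), beside a median of 0.965. For *Atp1b1* they were *Tada3* (0.0759) and *Gys1* (0.0965), beside a median of 0.425, with *Car2* at 0.144 and *Ano1* at 0.170. All libraries shared the same cohort split, which enters each of these distances.

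The lower and the higher mouse numbers were also compared apart. Among A5216 to A5218 against A5215 to A5221 (3 mice each) the log2 difference was -1.39 for *Sctr*, -1.80 for *Aqp1* and 0.53 for *Atp1b1*, and among A5447 and A5624 against A5626 and A5628 it was -1.50 for *Sctr*, -1.17 for *Aqp1* and 0.44 for *Atp1b1*. The directions of the called genes were the same in both ranges. With the lower numbers alone none of the 3 passed in limma over all genes (adjusted p = 0.117 for *Sctr*, 0.0644 for *Aqp1* and 0.0993 for *Atp1b1*), in a fit that called 9 genes higher and 50 lower. *Ano1*, *Slc4a4* and *Slc12a2* were higher in both *Smad4*del mice of the higher numbers than in all 3 of the lower numbers, at 11144 and 10032 against 7445 to 8381 normalized counts for *Ano1*.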

How the data were processed

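RNA was sequenced from sorted reactive cholangiocytes of 10 DDC-fed mice, after SMART-Seq v4 amplification. The submitters' notes name Trimmomatic 0.36, featureCounts and DESeq2 1.14.1 in R 3.3.2. The deposited signal values were made by the authors as read counts per gene, scaled by a size factor for each mouse and not by gene length. GRCm38.p5 is the build of the methods, and the notes also name mm9. The sources used here do not say whether multi-mapping reads were counted, and the labels' cell line tag and culture protocol were set aside for the methods' sorted liver cells. Values were whole multiples of 1 read (100%, relative tolerance 1e-06), which gave the reads on genes.

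Log2(normalized count + 1) of the 14870 genes with a mean of at least 10 was fitted in limma 3.58.1 (R 4.3.3) with a trended prior, called at an adjusted p of 0.05. The fit was also tried on simulated counts in which no cell mixture differed between the cohorts. That trial cannot show how such a difference affects the calls. edgeR 4.0.16 and DESeq2 1.42.0 on recovered reads were alternatives, as were other pseudocounts, filters, scalings, covariates and mice left out. Single genes also had exact permutation tests. The limma p-values set the difference between cohorts against the spread between mice within them, moderated by the trended prior. The permutation p-values give the share of splits of the mice with a difference at least as large. Members and lists were chosen with earlier results of these data known. Named were all members, *Smad4*, *Epcam*, *Krt19*, the called pathway genes (or the 2 most abundant of a list with none) and the genes most like the called members. Some genes that this rule names are not reported here. *Sct*, uncalled FXYD genes and the genes under other observations were added after their values were seen. Gene coordinates are from GENCODE M21 on GRCm38.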

Additional observations from a re-analysis of the deposited data

Results flagged for a closer look

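In groups of 5 mice, 9 of 74 sets of values had 1 mouse far from the other 4, where chance alone marks about 1 in 20 groups. The *Ctl* mouse A5215 was lowest for *Car2* (6955 normalized counts, other *Ctl* mice 10105 to 10487), for *Epcam* (16857, others 25162 to 25559) and for the mean log2 level of cholangiocyte markers (12.5, others 12.8 to 12.9). It was highest for *Atp1b3* (5397, others 2849 to 3545) and *Kcnk6* (612, others 147 to 208). The *Smad4*del mouse A5216 was highest for *Atp1b3* (2544, others 1991 to 2122), for *Fxyd5* (1183, others 446 to 578) and for the mean log2 level of neutrophil markers (4.41, others 2.5 to 2.92). The *Ctl* mouse A5628 was highest for *Fxyd6* (713, others 550 to 587). Among the members of the secretory machinery *Car2* was the only one marked in this way.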

How the results depend on the processing

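Of the 10 ductal secretion genes 1 was called higher and 2 lower, and both counts held without any 1 mouse (1 to 1 and 2 to 2). The count higher was 0 with *Epcam* scaling, with the endothelial or the macrophage level as covariate, in mice A5215 to A5221 only and in edgeR without A5217, and 2 with the mouse number range as a term or DESeq2. The count lower was 0 with the endothelial covariate and in mice A5215 to A5221 only. *Sctr* was -1.19 with the endothelial covariate and -1.39 in the lower numbered mice, *Aqp1* was -0.22 and -1.80, and *Atp1b1* was 0.22 and 0.53, besides 0.36 with *Epcam* scaling, 0.34 with the macrophage covariate and 0.49 in edgeR without A5217, each past no threshold. *Pde4b* turned to 0.14 with the endothelial covariate. Over all genes, 362 were higher and 697 lower, with 99 to 564 and 324 to 841 when 1 mouse was left out. The count higher was 209 with no filter, 579 with quantile and 626 with median scaling. Both counts moved with *Epcam* scaling (81 and 463), the endothelial (0 and 3) and macrophage covariates (107 and 330), DESeq2 (930 and 1374), the lower numbered mice (9 and 50) and edgeR without A5217 (89 and 265). *Epcam* scaling moved the median of all genes to -0.14, so changes under it are relative to that shift. The fits without A5217 were chosen after seeing the data. The cause of these moves was not tested. Some of these fits also held fewer mice. By the study's methods, controls were littermates where this was possible. No paired analysis was made because the labels do not give the litters.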

Other observations

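Genes of the secretory lists that missed the threshold, chosen after their values were seen, included some wide differences. *Car9*, a carbonic anhydrase of the cell surface, ran 150 to 800 normalized counts in *Smad4*del mice and 98.8 to 200.4 in *Ctl* mice (log2 fold change 1.38, limma adjusted p = 0.0664). *Chrm3*, the muscarinic acetylcholine receptor M3 that acts through calcium, ran 178 to 283 in *Smad4*del mice and 88.2 to 151 in *Ctl* mice, with no overlap (0.76, adjusted p = 0.0541). *Kcnj10*, an inward rectifier potassium channel, was at 0 to 17.7 in *Smad4*del mice and 12.2 to 198 in *Ctl* mice (-3.13, adjusted p = 0.0683).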
